A study of Patiria miniata with 6 samples.

Results

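The heat shock and DnaJ chaperone loci of the bat star Patiria miniata were examined in pooled hatched blastulae. Members were the loci whose every gene name in the authors' deposited comparison table began with Hsp, Dnaj, Cct and a digit, Tcp1, Grp94 or Bag and a digit after the species prefix Pm-. This gave 91 of the 27630 loci in that table, which carried 43 names and 85 gene models, out of 80165 loci in the count files. Embryos that had received a morpholino antisense oligonucleotide (MASO) for Pm-Tbr were compared with control MASO embryos, with 3 libraries of each. In Pm-Tbr MASO embryos the zygotes were injected at 600 µM with the oligonucleotide for this T-box factor, and RNA was taken at 36 hours post fertilization (hpf). In control embryos the zygotes were injected at 600 µM with a standard control MASO, and RNA was taken at 30 hpf. All embryos grew at 15 °C in artificial seawater until they hatched, were pooled, and had passed a sort for the injection tracer and for healthy morphology. The age of the embryos and the morpholino therefore cannot be told apart, and arrested or misshapen embryos are not represented. The mode of action of the Pm-Tbr MASO (translation or splicing) was not stated, and Pm-Tbr itself was not analysed here.

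Chaperones bind proteins that are not yet folded, or have lost their fold, and keep them from aggregating. Hsp70 proteins hold short exposed stretches in a cycle driven by ATP. J-domain proteins (the DnaJ or Hsp40 family) deliver clients to Hsp70 and start its ATP hydrolysis, while Bag proteins help it to release the nucleotide. Hsp90 proteins act on clients that are nearly folded, such as kinases and hormone receptors. TRiC, a double ring built from related Cct subunits, encloses and folds proteins that include actin and tubulin, the building blocks of the cytoskeleton and of cilia, which the hatched blastula carries.

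Counts assigned to loci summed to 17795136 to 28167566 per Pm-Tbr MASO library and to 25423004 to 26958581 per control MASO library. Values are given per 1000000 scaled counts (CPM), without correction for transcript length, so levels are compared between libraries and not between loci. Of 12 names fixed as markers of the stage, 11 were found, all with at least 196 counts in every library at their highest locus (Foxq2 was not found by name). These markers moved between the groups, with 5 of their 26 loci higher in Pm-Tbr MASO embryos, 4 lower and 17 not called (34.6% called). The 7 loci of the cilia genes named Tektin summed to 886 to 1156 CPM in Pm-Tbr MASO libraries and to 1836 to 1920 CPM in control libraries. The 11 loci of the egg and early embryo names Ebr1 and Vtgn summed to 8745 to 13857 CPM in Pm-Tbr MASO libraries and to 2939 to 5135 CPM in control libraries. Most of these sums came from 1 Pm-Ebr1 locus, with 8004 to 13014 CPM in Pm-Tbr MASO libraries and 2646 to 4845 CPM in control libraries. The 2 loci named Pm-Ebr1_5 had log2 fold changes of -0.15 and -1.71 and were not called, while the other loci of these names lay above 0. The part of these differences in the chaperone results was not tested. A difference was called when the Benjamini-Hochberg adjusted p of edgeR's quasi-likelihood test, taken over all 44120 tested loci, was under 0.05. In bulk RNA from whole embryos, fewer cells of a type and less RNA per cell cannot be told apart.

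All 91 chaperone loci passed the filter on low counts, but a locus has a name here only if it is in the authors' table, so loci with fewer reads are not covered. In Pm-Tbr MASO embryos 2 of the 91 rose, 5 fell and 84 did not pass. This is 7.69% of the members, where 2.28% of all tested loci and 3.21% of the tested loci in the authors' table were called. Of all tested loci 1.36% were higher and 0.922% lower, and of those listed by the authors 1.8% were higher and 1.41% lower. The rises were 1 locus of Pm-Hsp701E, an Hsp70 name, and 1 locus of Pm-Tcp1, a TRiC subunit name. The falls were Pm-Cct2 and both loci of Pm-Cct3, also TRiC subunits, and both loci of Pm-Hsp40C, a J-domain name. The median log2 fold change over the members was -0.02, against 0.01 over all tested loci, with 48 members below 0 and 43 above. The groups did not overlap in CPM at 25 members (27.5%), against 26.5% of all tested loci and 30.8% of those in the authors' table, so the share of members with separate groups was near the background. With the replicate number as a block, 3 members rose and 6 fell (9.89%). That fit called 10.1% of all tested loci (5.83% higher and 4.26% lower) and 13.1% of those in the authors' table. The block added a rise of Pm-Dnajc19 and a fall of 1 locus of Pm-Cct6A, and the members' share of calls was then no higher than the background. Among the members, DESeq2 called 3 higher and 7 lower, and the edgeR exact test called 2 higher and 7 lower. The share of all tested loci that these tests called is not given, so calls that they add at single loci have no background.

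**Figure D1:**
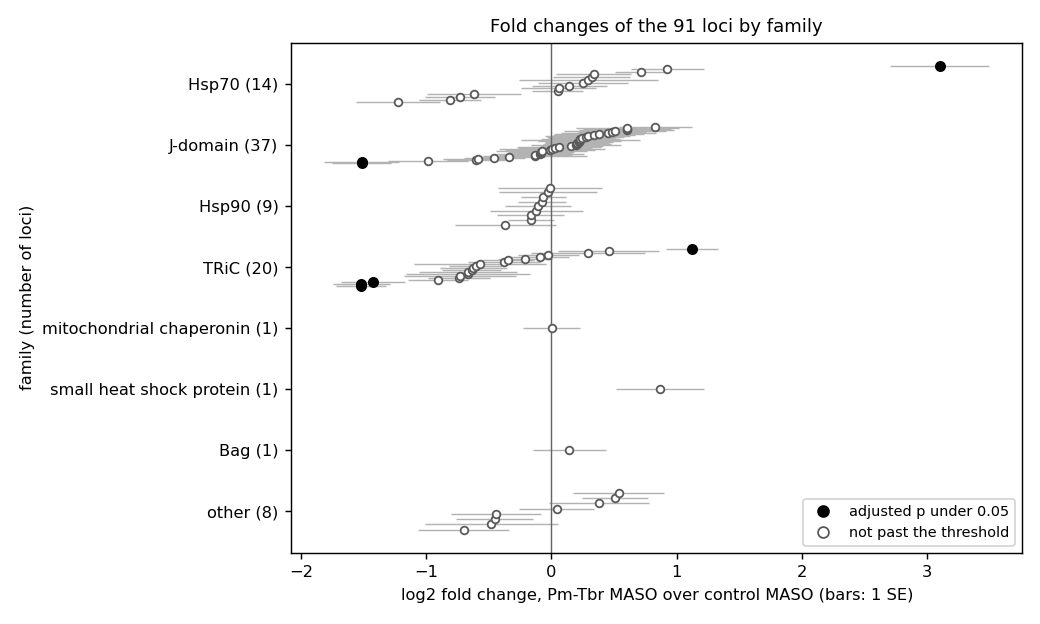
Log2 fold changes of the 91 chaperone loci (x axis, Pm-Tbr MASO over control MASO, with 1 SE) by family (y axis, with the number of loci); filled points passed an adjusted p of 0.05. The Hsp70 point at 3.10 stands alone on the right, all 9 Hsp90 points lie between -0.37 and -0.01, and 17 of 20 TRiC points lie below 0.

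Among 14 Hsp70 loci, 1 of the 8 loci named Pm-Hsp701E rose and the other 13 Hsp70 loci did not pass. This is 7.14% of the family, against 2.28% of all tested loci. The called locus lies on scaffold 49 from 22474 to 26082 of the authors' assembly (build not given in the sources used here). It had 92.8, 55.0 and 67.1 CPM in Pm-Tbr MASO replicates 1 to 3, against 12.04, 4.63 and 8.34 CPM in control MASO replicates 1 to 3. All Pm-Tbr MASO libraries thus lay far above all controls. The means were 71.6 ± 19.3 CPM in Pm-Tbr MASO embryos and 8.34 ± 3.71 CPM in control embryos (SD, n = 3 each), 8.58-fold higher, or 3.10 ± 0.40 (SE) on the log2 scale, with an adjusted p of 0.0208 in edgeR's quasi-likelihood test. The log2 fold change stayed between 2.81 and 3.46 with any 1 library left out. The call ended without Pm-Tbr MASO replicate 1 (adjusted p = 0.0574), control MASO replicate 2 (adjusted p = 0.0909) or control MASO replicate 3 (adjusted p = 0.0563).

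The other 7 loci of that name all had fitted values above 0, from 0.05 to 0.93 on the log2 scale, and none passed in edgeR's quasi-likelihood test. On scaffold 1769 the Pm-Hsp701E locus had 127, 96.9 and 127 CPM in Pm-Tbr MASO embryos and 70.4, 75.8 and 67.2 CPM in control embryos, with no overlap between the groups (adjusted p = 0.107); DESeq2 called it higher (adjusted p = 0.0456). On scaffold 17501 it had 42.2, 23.6 and 47.3 CPM in Pm-Tbr MASO embryos and 18.3, 22.1 and 19.0 CPM in control embryos, where Pm-Tbr MASO replicate 2 lay just above the controls (adjusted p = 0.135). The loci on scaffolds 11388 and 5591 behaved otherwise. On scaffold 11388 the values were 787, 555 and 538 CPM in Pm-Tbr MASO embryos and 808, 472 and 421 CPM in control embryos, so that replicate 1 was the highest of its group in both. On scaffold 5591 the larger of 2 loci had 391, 351 and 377 CPM in Pm-Tbr MASO embryos and 415, 369 and 297 CPM in control embryos; the groups overlapped and the log2 fold change was 0.05 ± 0.20 (SE, adjusted p = 0.923). Within each library, the log2 ratio of the scaffold 49 locus to the scaffold 11388 locus was -3.08, -3.33 and -3.00 in Pm-Tbr MASO embryos and -6.06, -6.65 and -5.64 in control embryos. This ratio, chosen after its values were seen, differed by 2.98 between the group means, and it is given without a test. When the reads of all 8 loci were added up, the name missed the threshold (log2 fold change 0.24 ± 0.24, adjusted p = 0.636).

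The remaining 6 Hsp70 loci are named Pm-Hsp701G, Pm-Hsp701H and Pm-Hsp702A. Pm-Hsp702A had 231, 252 and 315 CPM in Pm-Tbr MASO embryos, against 947, 526 and 393 CPM in control embryos. The groups did not overlap, but the controls were spread widely and the locus missed the threshold (log2 fold change -1.22 ± 0.34, adjusted p = 0.0973), whereas DESeq2 and the edgeR exact test called it lower (adjusted p = 0.0165 and 0.0239). Of the 4 Pm-Hsp701G loci, 3 were at -0.81, -0.73 and -0.62 on the log2 scale, and none passed. The one on scaffold 5520 had 10.4, 14.4 and 15.7 CPM in Pm-Tbr MASO embryos and 21.0, 26.2 and 23.7 CPM in control embryos, again without overlap (adjusted p = 0.126). The fourth, at 0.29, lies beside others on scaffold 8789 and shares a gene model with one of those at negative values. Pm-Hsp701H averaged 251 ± 89.8 CPM in Pm-Tbr MASO embryos and 199 ± 38.4 CPM in control embryos (SD, n = 3 each), with overlapping groups. The Hsp70 loci thus held both signs, with 10 loci above 0 and 4 below, and their summed level was 2068, 1565 and 1765 CPM in Pm-Tbr MASO embryos and 2579, 1706 and 1462 CPM in control embryos.

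**Figure D2:**
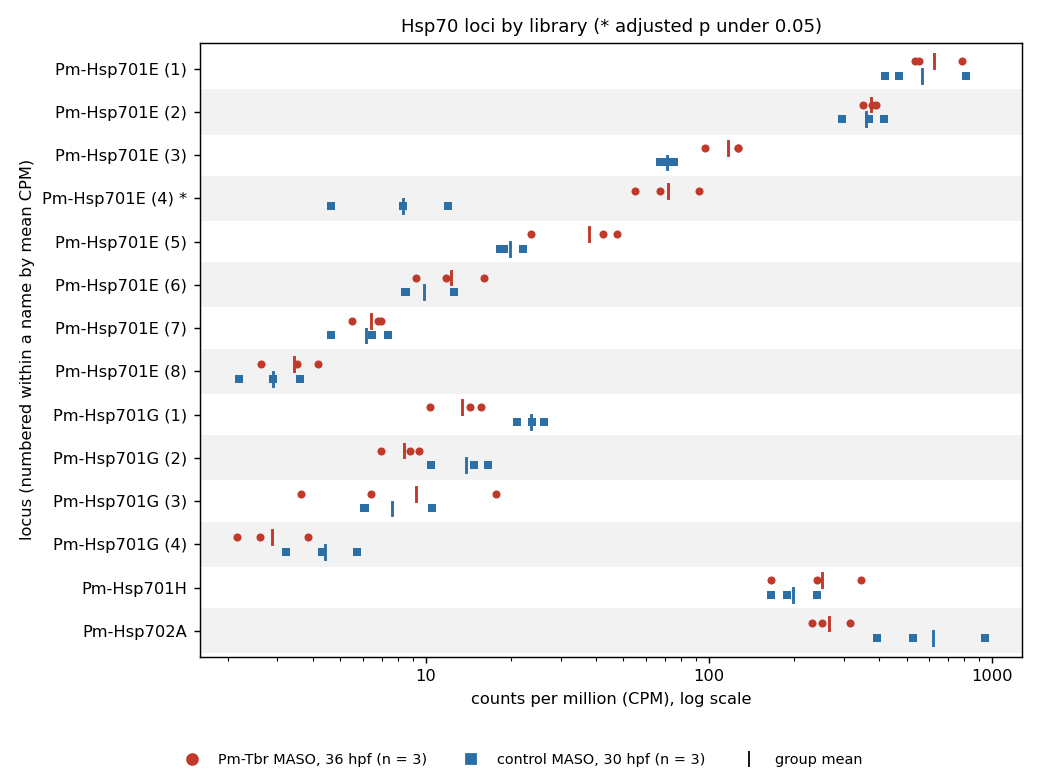
CPM (x axis, log scale) of the 14 Hsp70 loci (y axis, numbered within a name by mean CPM) in 3 Pm-Tbr MASO libraries (circles, upper line of each row) and 3 control MASO libraries (squares, lower line); short bars are group means and an asterisk marks an adjusted p under 0.05. The starred Pm-Hsp701E row separates by 8.58-fold, and in the Pm-Hsp702A row the controls spread from 393 to 947 CPM.

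Of 37 J-domain loci, 2 fell, 0 rose and 35 did not pass, with a median of 0.20 on the log2 scale. The share called was 5.41%, against 2.28% of all tested loci. Both falls were at Pm-Hsp40C, on 2 scaffolds with separate gene models. The locus on scaffold 1422 (52112 to 58437) had 21.5, 21.2 and 13.1 CPM in Pm-Tbr MASO embryos and 66.4, 54.5 and 38.8 CPM in control embryos. The locus on scaffold 7074 (20184 to 26019) had 11.7, 11.3 and 10.7 CPM in Pm-Tbr MASO embryos and 29.4, 38.6 and 28.0 CPM in control embryos. At both loci all Pm-Tbr MASO libraries lay below all controls, and the sizes were alike, with log2 fold changes of -1.51 ± 0.30 and -1.51 ± 0.23 (SE), or 2.85-fold and 2.86-fold lower (adjusted p = 0.0457 and 0.0288). Added up, the reads of this name gave -1.53 ± 0.24 (adjusted p = 0.0300). Leaving out any 1 of the 6 libraries ended both calls, with adjusted p from 0.0637 (without control MASO replicate 3) to 0.152 (without control MASO replicate 2) at the first locus and from 0.0589 to 0.111 (the same libraries) at the second, while the log2 fold changes stayed between -1.70 and -1.32.

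None of the other 7 loci named Hsp40 passed. The Pm-Hsp40F locus on scaffold 10525 had 130, 112 and 156 CPM in Pm-Tbr MASO embryos and 201, 167 and 237 CPM in control embryos (log2 fold change -0.60 ± 0.23, adjusted p = 0.191). The groups did not overlap there, whereas the remaining loci of that name had values of 0.60 and 0.23. Pm-Hsp40D had 74.0, 84.5 and 64.7 CPM in Pm-Tbr MASO embryos and 89.0, 49.6 and 37.4 CPM in control embryos, and Pm-Hsp40E on scaffold 1707 had means of 58.6 ± 9.78 and 62.1 ± 14.3 CPM in Pm-Tbr MASO and control embryos (SD, n = 3 each). Both showed overlapping groups.

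The 28 loci named Dnaj ranged from -0.98 to 0.83 on the log2 scale, and none passed without the block (19 above 0, 9 below). The highest value belonged to Pm-Dnajc19, which in mammals is a J-domain protein of the mitochondrial inner membrane. It had 94.5, 57.9 and 52.9 CPM in Pm-Tbr MASO embryos and 47.6, 32.5 and 35.4 CPM in control embryos. The groups did not overlap, and replicate 1 was the highest in both. Its log2 fold change was 0.83 ± 0.29 (adjusted p = 0.164), and with the replicate number as a block it was 0.80 and was called higher (adjusted p = 0.0435). This locus overlaps another of the authors' loci, and without a stated strand setting reads of both may be mixed. The lowest values were at Pm-Dnajc3L, whose mammalian namesake is a J-domain protein of the endoplasmic reticulum lumen. Its locus on scaffold 3540 had 4.37, 6.29 and 7.83 CPM in Pm-Tbr MASO embryos and 15.5, 10.8 and 10.3 CPM in control embryos, without overlap (log2 fold change -0.98 ± 0.32, adjusted p = 0.139). The other locus of that name had a log2 fold change of -0.59 and groups that did not overlap either (adjusted p = 0.287). The J-domain names of other compartments and duties, added after their values were seen, also missed the threshold. They included both loci of Pm-Dnaja3, a mitochondrial J-domain name, at 0.28 and 0.22, both of Pm-Dnajhc10, a name from the endoplasmic reticulum, at -0.34 and -0.46, both of Pm-Dnajc2, which acts at the ribosome, at 0.24 and 0.60, and the 3 of Pm-Dnajb1, a cytosolic partner of Hsp70, at 0.48, 0.46 and -0.01.

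**Figure D3:**
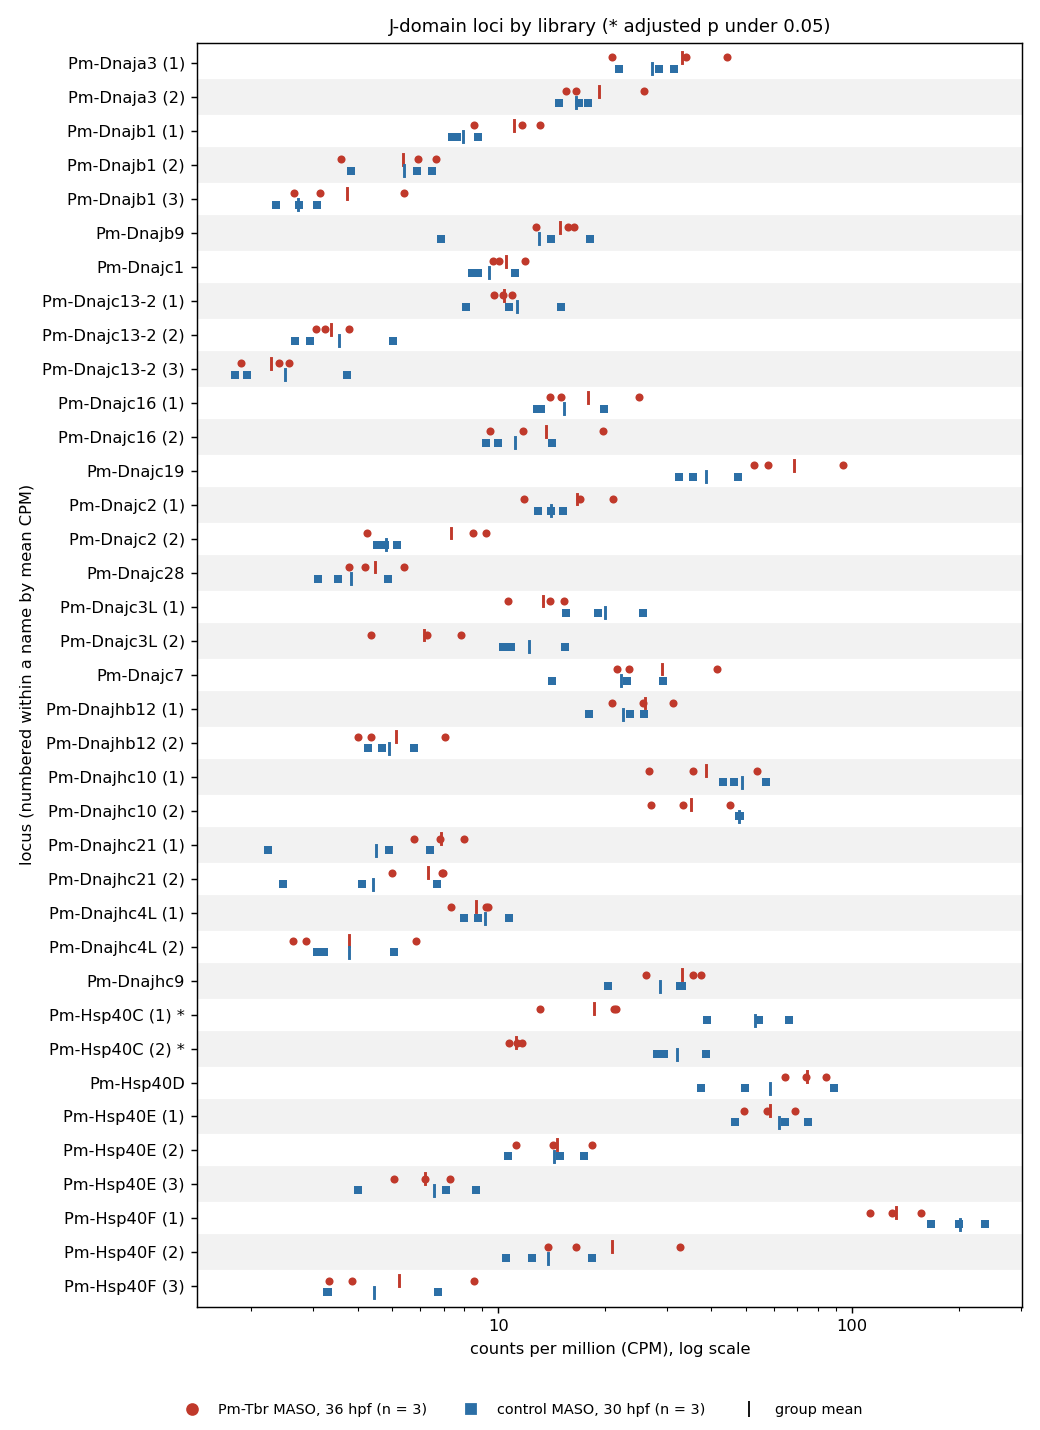
CPM (x axis, log scale) of the 37 J-domain loci (y axis, numbered within a name by mean CPM) in 3 Pm-Tbr MASO libraries (circles, upper line of each row) and 3 control MASO libraries (squares, lower line); short bars are group means and an asterisk marks an adjusted p under 0.05. Both starred Pm-Hsp40C rows lie lower in Pm-Tbr MASO libraries; without a star and without overlap, Pm-Dnajc19 lies higher, and both Pm-Dnajc3L rows, 1 Pm-Dnajhc10 row and Pm-Hsp40F (1) lie lower.

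None of the 9 Hsp90 loci passed, and the smallest adjusted p was 0.667. Pm-Hsp90L on scaffold 10202 had 843, 849.5 and 755 CPM in Pm-Tbr MASO embryos and 880, 820 and 858 CPM in control embryos, a log2 fold change of -0.06 ± 0.18. Pm-Hsp902A on scaffold 92 had 124, 215 and 142 CPM in Pm-Tbr MASO embryos and 145, 183 and 210.3 CPM in control embryos, with overlapping groups. The loci of this family had values from -0.37 to -0.01 with a median of -0.11, and only Pm-Hsp901 on scaffold 7295 had groups that did not overlap, at 113 ± 6.57 CPM in Pm-Tbr MASO embryos and 126 ± 2.11 CPM in control embryos (SD, n = 3 each). The other 4 Pm-Hsp901 loci, which lie outside the rule for named loci and were picked after their values were seen, had their highest value in the same library, control MASO replicate 1. The one on scaffold 2958 had 44.6, 48.2 and 48.9 CPM in Pm-Tbr MASO embryos, against 85.9, 35.7 and 32.4 CPM in control MASO replicates 1 to 3. On scaffold 19238 the values were 28.9, 36.2 and 38.5 CPM in Pm-Tbr MASO embryos and 59.1, 21.7 and 24.6 CPM in control embryos. Control MASO replicate 1 was thus far above both other controls at these loci, and it was also the highest control for Pm-Hsp702A and for the Pm-Hsp701E locus on scaffold 11388.

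TRiC held 4 of the 7 calls. Of its 20 loci, which carry 8 names and 18 gene models, 3 fell, 1 rose and 16 did not pass. This is 20% called, against 2.28% of all tested loci and 3.21% of those in the authors' table. With the block 25% were called, against 10.1% and 13.1%. The median was -0.61 on the log2 scale, and 17 loci had values below 0. The groups did not overlap at 10 of the 20 (50.0%), 9 of them lower, where 26.5% of all tested loci had separate groups, and 13.3% were separate and lower. For loci in the authors' table, from which the members come, these shares were 30.8% and 16.7%. These counts are a description of the list and carry no test. All 15 loci named Cct had values below 0 in this fit, from -1.52 to -0.02, while the 5 named Tcp1 had both signs. The 15 loci carry 6 names and 13 gene models, so they are not independent of each other. Pm-Cct5 alone gave 6 of them, from 4 gene models, and on scaffold 4712 its smaller locus lies within the larger. The locus nearest 0, Pm-Cct7 on scaffold 9702, had a log2 fold change of 0.0095 in the authors' deposited comparison.

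Pm-Cct2, on scaffold 2954 from 35135 to 45902, had 28.7, 32.2 and 30.5 CPM in Pm-Tbr MASO embryos and 82.2, 82.7 and 97.3 CPM in control embryos. Its libraries were tight within each group and far apart between them. It was 2.87-fold lower, with a log2 fold change of -1.52 ± 0.20 (SE, adjusted p = 0.0224). A nameless locus on the other strand overlaps it. The Pm-Cct3 locus on scaffold 1427 (38236 to 62734) had 21.2, 20.1 and 25.4 CPM in Pm-Tbr MASO embryos and 61.0, 54.9 and 75.1 CPM in control embryos. The Pm-Cct3 locus on scaffold 5940 (38461 to 47194) had 18.6, 18.7 and 26.4 CPM in Pm-Tbr MASO embryos and 50.3, 51.1 and 69.2 CPM in control embryos. Replicate 3 was the highest of its group at both Pm-Cct3 loci. Their log2 fold changes were -1.52 ± 0.23 and -1.42 ± 0.25 (SE), with adjusted p of 0.0284 and 0.0354, and added up the name gave -1.49 ± 0.23 (adjusted p = 0.0287). The Pm-Cct2 call ended without Pm-Tbr MASO replicate 1 or 2 (adjusted p = 0.0757 and 0.0579) and without control MASO replicate 2 or 3 (adjusted p = 0.0934 and 0.0563). The first Pm-Cct3 call held only without Pm-Tbr MASO replicate 3 (adjusted p = 0.0475) and otherwise reached 0.0605 to 0.0964. The second ended without any 1 of the 6 libraries (adjusted p from 0.0526 to 0.119). Over these fits the 3 log2 fold changes stayed between -1.63 and -1.26.

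None of the other 12 loci named Cct passed in edgeR's quasi-likelihood test without the block. Pm-Cct6A on scaffold 3377 had 97.8, 85.9 and 136 CPM in Pm-Tbr MASO embryos and 176, 147 and 208 CPM in control embryos (log2 fold change -0.73 ± 0.25, adjusted p = 0.154), and with the block it was called lower (adjusted p = 0.0463). Its other locus, on scaffold 481, had 85.6, 79.0 and 85.8 CPM in Pm-Tbr MASO embryos and 149, 103 and 128 CPM in control embryos, and passed in neither fit. Pm-Cct8 had 165, 150 and 231 CPM in Pm-Tbr MASO embryos and 243, 283 and 321 CPM in control embryos (log2 fold change -0.64 ± 0.24, adjusted p = 0.186). None of these 3 loci had overlapping groups. The 6 loci of Pm-Cct5 had values from -0.91 to -0.57. The one at -0.91, on scaffold 10646, had 25.4, 19.0 and 26.1 CPM in Pm-Tbr MASO embryos and 41.7, 52.2 and 38.2 CPM in control embryos and missed the threshold (adjusted p = 0.0890), although DESeq2 and the edgeR exact test called it lower (adjusted p = 0.0206 and 0.0448). At the 4 Pm-Cct5 loci on scaffolds 4712 and 8337, which belong to 2 gene models and were picked after their values were seen, Pm-Tbr MASO replicate 3 stood apart from its group. The larger locus on scaffold 4712 had 47.1, 33.5 and 95.04 CPM in Pm-Tbr MASO embryos and 76.8, 81.8 and 119.8 CPM in control embryos. Both replicate 3 libraries were the highest of their groups there. The 3 loci of Pm-Cct7, also picked afterwards, had values of -0.21, -0.09 and -0.02 with overlapping groups.

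Pm-Tcp1 and the name Pm-Tcp1_2 are assigned to 5 loci with separate gene models. The called locus, on scaffold 8692 from 17911 to 31644, had 250, 309 and 295 CPM in Pm-Tbr MASO embryos and 145, 109 and 138 CPM in control embryos. It was 2.18-fold higher, with means of 285 ± 30.9 and 131 ± 18.8 CPM in Pm-Tbr MASO and control embryos (SD, n = 3 each) and a log2 fold change of 1.12 ± 0.21 (SE, adjusted p = 0.0389). This call ended without any 1 of the 6 libraries (adjusted p from 0.0748 to 0.159) and with no filter on low counts (adjusted p = 0.0510); the log2 fold change stayed between 1.01 and 1.20. The locus of that name on scaffold 1099 had 590, 517 and 427 CPM in Pm-Tbr MASO embryos and 252, 222 and 642 CPM in control embryos. Control MASO replicate 3 was above all Pm-Tbr MASO libraries while both other controls were below them, and no call was made (0.46 ± 0.40 on the log2 scale, adjusted p = 0.578). Without that library the log2 fold change was 1.11 (adjusted p = 0.0982). The locus on scaffold 35311, picked after its values were seen, also had control MASO replicate 3 above, and both other controls below, all Pm-Tbr MASO libraries, with 26.4, 18.9 and 22.0 CPM in Pm-Tbr MASO embryos and 11.97, 9.73 and 33.3 CPM in control embryos. The Pm-Tcp1_2 loci had values of -0.35 and -0.38 and did not pass. With the reads of the 3 Pm-Tcp1 loci added up, the name missed the threshold (log2 fold change 0.64 ± 0.33, adjusted p = 0.325).

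Within each library, the log2 ratio of the called Pm-Tcp1 locus to Pm-Cct2 was 3.12, 3.26 and 3.27 in Pm-Tbr MASO embryos and 0.81, 0.40 and 0.50 in control embryos. The group means of this ratio differed by 2.64. Against Pm-Cct8, the log2 ratio of Pm-Cct2 was -2.52, -2.21 and -2.92 in Pm-Tbr MASO embryos and -1.57, -1.77 and -1.72 in control embryos. These loci were chosen for their differences, so both ratios only describe them and carry no test. The summed level of all 20 TRiC loci was 1835, 1655 and 1992 CPM in Pm-Tbr MASO embryos and 1899, 1750 and 2533 CPM in control embryos, so the sums of the groups overlapped. Loci with many counts weigh most in this sum. Pm-Tcp1 on scaffold 1099 gave 590, 517 and 427 CPM of it in Pm-Tbr MASO embryos and 252, 222 and 642 CPM in control embryos. The sum therefore does not describe the loci named Cct by themselves.

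**Figure D4:**
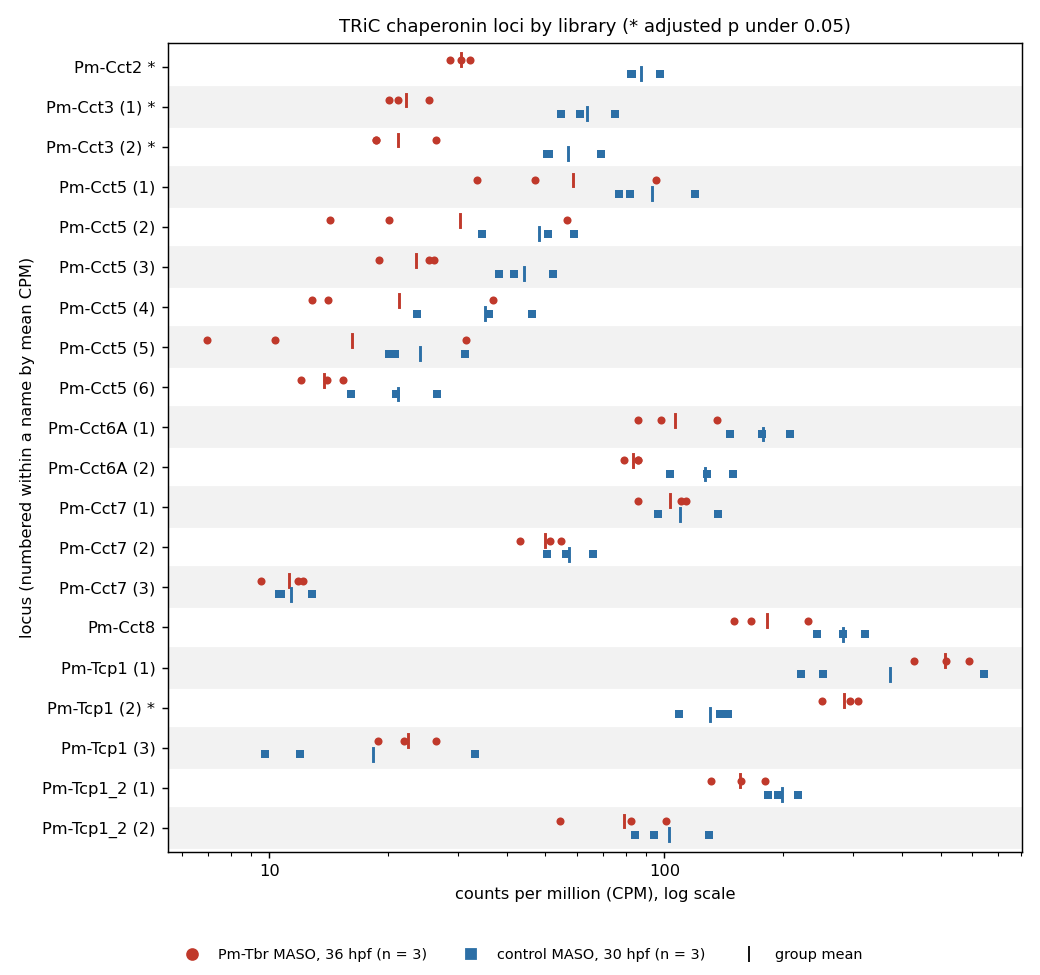
CPM (x axis, log scale) of the 20 TRiC loci (y axis, numbered within a name by mean CPM) in 3 Pm-Tbr MASO libraries (circles, upper line of each row) and 3 control MASO libraries (squares, lower line); short bars are group means and an asterisk marks an adjusted p under 0.05. The starred Pm-Cct2 and Pm-Cct3 rows lie lower in Pm-Tbr MASO libraries, the starred Pm-Tcp1 row lies higher, and 1 control library sits to the right of all others in 2 Pm-Tcp1 rows.

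The other chaperone classes held 1 locus each, and none passed. Pm-HspD1, the mitochondrial chaperonin Hsp60, had 223, 244 and 341 CPM in Pm-Tbr MASO embryos and 254, 250 and 301 CPM in control embryos, a log2 fold change of 0.00 ± 0.23. Pm-Hsp20.1, a small heat shock protein name, had 4.08, 4.55 and 5.20 CPM in Pm-Tbr MASO embryos and 2.65, 1.73 and 3.22 CPM in control embryos. Its groups did not overlap, but it missed the threshold (log2 fold change 0.86 ± 0.35, adjusted p = 0.221). Pm-Bag2, a Bag co-chaperone of Hsp70, had a log2 fold change of 0.14 ± 0.29. The name rule also took in 8 loci that belong to none of these classes, and none of them passed. They were Pm-Hsp100A, Pm-Hspbap1, Pm-HspC152l, 2 loci of Pm-Hspg2, whose vertebrate namesake is perlecan, a proteoglycan of basement membranes, and 3 loci of Pm-Tcp11, named after a testis protein that is not a TRiC subunit. Their values ran from -0.70 to 0.54 on the log2 scale.

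Genes that work with these chaperones were read from 4 lists of names, and 1 of their 80 loci was called, a smaller share than the 2.28% of all tested loci. Of 17 loci of the heat shock regulator and of Hsp70 and Hsp90 co-chaperones, 1 fell, 0 rose and 16 did not pass, with a median of -0.18. The fall was at Pm-Ahsah1, named for an activator of the Hsp90 ATPase, at the locus on scaffold 2170 from 11093 to 13222. It had 5.48, 5.35 and 5.93 CPM in Pm-Tbr MASO embryos and 11.8, 14.3 and 16.25 CPM in control embryos (log2 fold change -1.34 ± 0.25, adjusted p = 0.0409). The other loci of that name had log2 fold changes of -1.33 and -1.33 (adjusted p = 0.0617 for both), and with the block all 3 were called lower (adjusted p from 0.0134 to 0.0163). Without the block, those 2 were also called after the CPM filter (adjusted p = 0.0485 and 0.0482), by DESeq2 (adjusted p = 0.00308 and 0.00239) and by the edgeR exact test (adjusted p = 0.00841 and 0.00848). One of the 2 shares the gene model of the called locus. Leaving out any 1 of the 6 libraries ended the call (adjusted p from 0.0731 to 0.146). Pm-HsF, a heat shock factor name, had 12.3, 11.9 and 11.1 CPM in Pm-Tbr MASO embryos and 26.9, 27.2 and 13.2 CPM in control embryos; its groups did not overlap, control MASO replicate 3 lay near the Pm-Tbr MASO libraries, and it did not pass (adjusted p = 0.154). The list also took in Pm-Clpx, a mitochondrial unfoldase name and not a co-chaperone of Hsp70 or Hsp90, at 0.19 and 0.12 on the log2 scale. Pm-Ttc4 had 70.7, 10.3 and 23.8 CPM in Pm-Tbr MASO embryos and 17.9, 26.8 and 16.7 CPM in control embryos, where Pm-Tbr MASO replicate 1 stood apart from its group.

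None of the 12 loci of prefoldin and TRiC partners passed in the quasi-likelihood test without the block after filterByExpr, and their median was -0.50 on the log2 scale. The groups did not overlap at 8 of the 12 (66.7%), 6 of them lower, where 26.5% of all tested loci were separate and 13.3% separate and lower. For loci in the authors' table these shares were 30.8% and 16.7%. These counts carry no test. Both loci of Pm-Vbp1, a subunit of prefoldin, which hands actin and tubulin chains to TRiC, had groups that did not overlap. On scaffold 15478 it had 25.4, 30.2 and 39.9 CPM in Pm-Tbr MASO embryos and 49.6, 54.2 and 64.1 CPM in control embryos (log2 fold change -0.81 ± 0.24, adjusted p = 0.118). Its other locus, on scaffold 2233, had a log2 fold change of -0.78 ± 0.25. Pm-Pdcl3, a phosducin-like name of proteins that bind TRiC, had values of -1.20, -0.78 and -0.51 at 3 loci, and the first had 8.22, 7.46 and 7.38 CPM in Pm-Tbr MASO embryos and 22.4, 14.7 and 15.9 CPM in control embryos (adjusted p = 0.0564). Pm-Tbce, a tubulin folding cofactor, had 13.4, 19.8 and 13.4 CPM in Pm-Tbr MASO embryos and 7.59, 5.18 and 5.44 CPM in control embryos at the locus on scaffold 385 (1.36 ± 0.30 on the log2 scale, adjusted p = 0.0562). Its other locus, on scaffold 9401, was at 0.25 with overlapping groups (adjusted p = 0.754). With the block, 1 locus each of Pm-Vbp1 and Pm-Pdcl3 was called lower (adjusted p = 0.0375 and 0.0220). The Pm-Tbce locus on scaffold 385 was called higher with it (adjusted p = 0.0274), where the block called 10.1% of all tested loci. The same Pm-Pdcl3 and Pm-Tbce loci were also called without the block after the CPM filter (adjusted p = 0.0441 and 0.0388), by DESeq2 (adjusted p = 0.00228 and 0.00157) and by the edgeR exact test (adjusted p = 0.0100 and 0.00668).

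**Figure D5:**
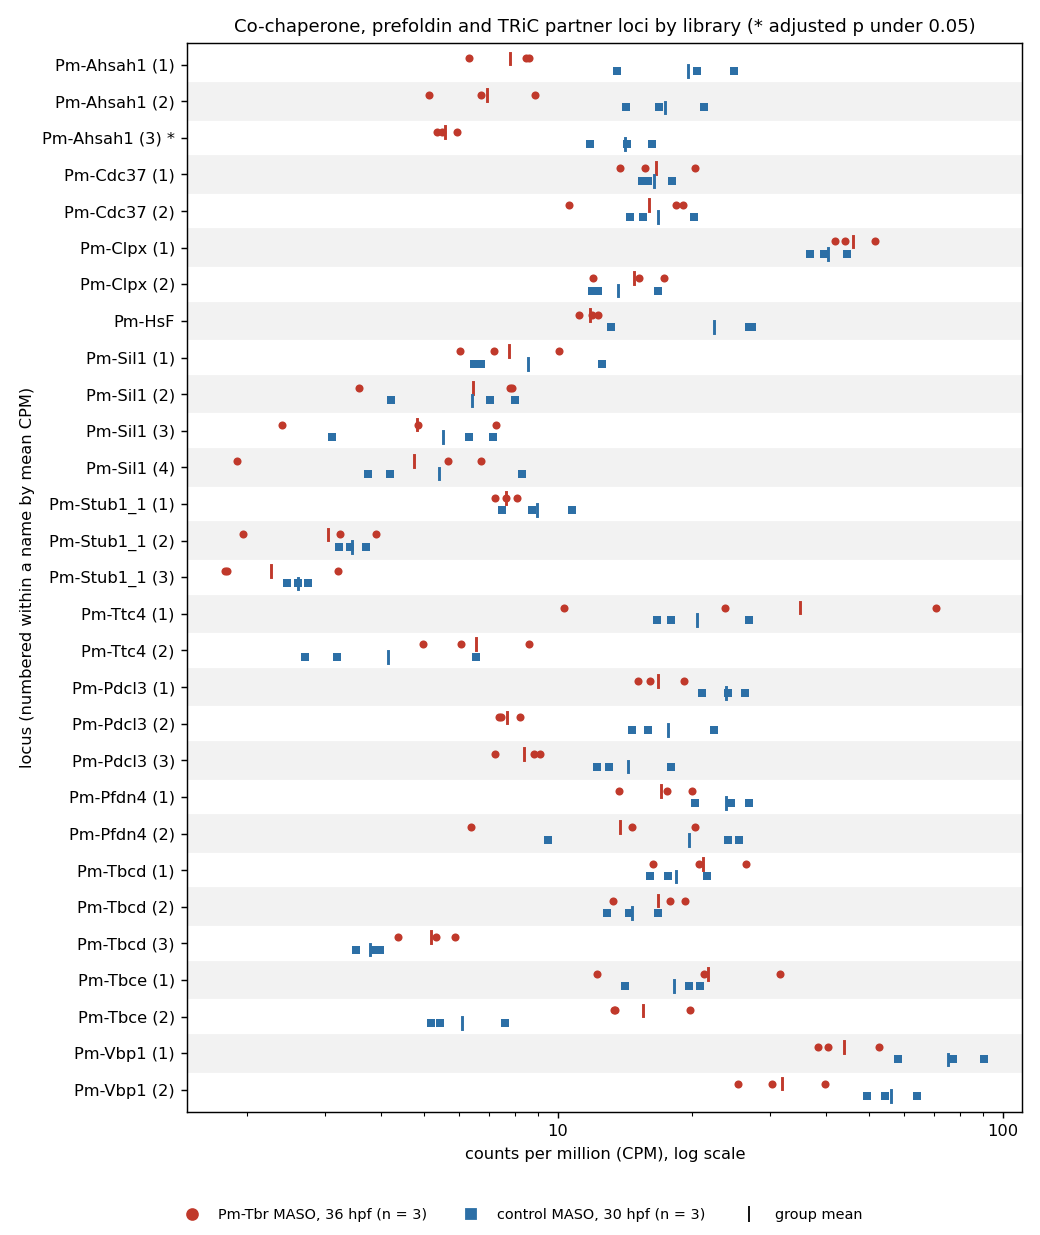
CPM (x axis, log scale) of 29 loci of co-chaperones, the heat shock factor, prefoldin and TRiC partners (y axis, numbered within a name by mean CPM) in 3 Pm-Tbr MASO libraries (circles, upper line of each row) and 3 control MASO libraries (squares, lower line); short bars are group means and an asterisk marks an adjusted p under 0.05. The Pm-Ahsah1, Pm-Vbp1 and Pm-Pdcl3 rows lie lower in Pm-Tbr MASO libraries, with 1 starred Pm-Ahsah1 row, and 1 Pm-Tbce row lies higher.

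The list for folding in the endoplasmic reticulum (36 loci, median -0.34) took every Txndc name, whatever its compartment. The list for the unfolded protein response, a stress signal, held 15 loci (median -0.50). There, Pm-Edem, Pm-Derl and Pm-Mbtps1 loci lay from -0.86 to -0.43, and the Pm-Xbp1, Pm-Creb3l3, Pm-Atf6b and Pm-Sel1L loci from -0.08 to 0.78. Neither list had a call in the quasi-likelihood test without the block after filterByExpr. Groups did not overlap at 36.1% of the first list (0 higher, 13 lower) and 53.3% of the second (2 higher, 6 lower). This was 26.5% of all tested loci and 30.8% of the authors' table, and these counts carry no test. Pm-Calr, the lectin chaperone calreticulin, had 185, 138 and 205 CPM in Pm-Tbr MASO embryos and 978, 505 and 355 CPM in control embryos. Its groups did not overlap, control MASO replicate 1 was the highest as it was for Pm-Hsp702A, and it missed the threshold (log2 fold change -1.80 ± 0.38, adjusted p = 0.0525). The CPM filter and no filter on low counts each gave a call (adjusted p = 0.0408 and 0.0307), as did DESeq2 and the edgeR exact test (adjusted p = 0.000436 and 0.00101). With the block it was called lower (adjusted p = 0.0221), as was 1 locus of the disulfide isomerase Pm-Pdia4 at -0.79 (adjusted p = 0.0433), which DESeq2 and the edgeR exact test also called (adjusted p = 0.0117 and 0.0459). Another Pm-Pdia4 locus, with means of 629 ± 104 CPM in Pm-Tbr MASO embryos and 596 ± 109 CPM in control embryos (SD, n = 3 each), was at 0.08 on the log2 scale. Pm-Canx, calnexin, had -0.47 and did not pass. Among the stress signal genes, Pm-Creb3l3, a transcription factor held in the membrane of this compartment, stood at 0.78 ± 0.22 on the log2 scale (adjusted p = 0.107) and was called higher with the block (adjusted p = 0.0428) and by DESeq2 (adjusted p = 0.0423). Pm-Xbp1, another transcription factor of this response, had 321, 156 and 243 CPM in Pm-Tbr MASO embryos and 247, 134 and 110 CPM in control embryos, with overlapping groups. Pm-Edem3, which acts in the disposal of misfolded glycoproteins, stood at -0.72 ± 0.26 on the log2 scale (adjusted p = 0.172).

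The replicate number itself was tested in the fit with the block, because several chaperone loci differed between libraries of 1 group as much as between groups. No member passed (smallest adjusted p = 0.129), against 0.995% of all tested loci. At an unadjusted p under 0.05 there were 18 members (19.8%), near the 20.4% of all tested loci.

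In the authors' deposited table, 7 of the 91 members had a false discovery rate under 0.05, and these were the 7 loci called here, in the same directions. That table called 9.27% of its loci. It gave the Pm-Hsp701E locus on scaffold 49 a log2 fold change of 3.14 and Pm-Cct2 one of -1.48.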

How the data were processed

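RNA of pooled embryos was sequenced from TruSeq libraries, per the labels' protocols. The authors deposited raw counts as whole numbers for 80165 loci plus 5 summary lines per library; those lines (49% to 50.6% of each library) stayed out of library sizes and tests. Per the submitters' processing notes, the tools include CASAVA 1.8, TopHat2 2.0.12 and SAMtools, and Cufflinks 2.2.1, HTSeq 0.6.1p1 and edgeR 3.10.5 are listed, with no role or order, and the genome build and strand setting were not stated. A table of the authors' own edgeR comparison was deposited with log2 fold changes, log2 CPM, F (a score), p-values and FDR, per the file headers; its 27630 loci are those with a CPM above 2 in at least 3 libraries. Names and positions came from it. The summary lines include reads not uniquely aligned, 43.4% to 45.2% of each library. Reads that fit several near-identical loci of 1 name may thus be missing from the locus values and from values added up by name. Other reads of such loci may be split between them, and 8 members overlap another locus, so values are per locus.

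After filterByExpr (44120 loci) and TMM scaling, the counts were fitted in edgeR 4.0.16 (R 4.3.3) by quasi-likelihood with group as the only term. P-values were adjusted by Benjamini-Hochberg over all tested loci. The SE is the log2 fold change divided by the square root of F. The labels tie no replicate to its own spawning, so the p-values reflect only the variation among these libraries, which may be technical. Libraries of a group all differed by more than sampling noise (chi-square divided by its degrees of freedom, 38.7 to 54.6). Same-numbered libraries deviated together from their group means (correlations 0.53, 0.23 and 0.56 over 44120 loci for numbers 1, 2 and 3, and below 0 for unlike numbers). The pairing comes from the counts, not from a stated batch, and blocked values are printed where a call changed. The fit was tested on simulated data.

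Members and lists were chosen with earlier results of these data known. Families went by name. Pm-HspC152l, which the name rule put beside Hsp90, was counted among the other names, since its vertebrate namesake is no chaperone. Named loci were all called members, all of Pm-Hsp701E, Pm-Hsp40C and Pm-Dnajc19, 3 further loci with the highest mean CPM per family, the 10 uncalled members with the smallest p, members whose call changed with the block, and in each list the called loci and 2 with the highest mean CPM. Loci named beyond this rule were picked after their values were seen. As alternatives, RLE scaling, 2 other filters, an adjusted p under 0.10, reads added up by name, the block, leaving out each library, the exact test of edgeR and DESeq2 1.42.0 were run.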

Additional observations from a re-analysis of the deposited data

How the results depend on the processing

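RLE scaling, a CPM filter, the replicate block, DESeq2 and the edgeR exact test kept the counts of called members within 1.5 times of 2 higher and 5 lower. All 7 called loci kept their calls in each. An adjusted p under 0.10 gave 2 higher and 7 lower, and leaving out names of other proteins gave 2 higher and 5 lower. These settings reuse the main fit and the left-out names had no call, so the 7 calls could not be lost there. The replicate block gave 3 higher and 6 lower; it changed no member call other than Pm-Dnajc19 and 1 locus of Pm-Cct6A, and over all tested loci it called 4455, against 1008 without it. With no filter on low counts, 1 member was higher, because Pm-Tcp1 missed the threshold. With reads added up by name, 0 of 43 names were higher and 3 lower (Pm-Cct2, Pm-Cct3 and Pm-Hsp40C). That fit called 2.12% of its 38090 tested entries. With 1 library left out, 0 to 1 members were higher and 0 to 2 lower. Without Pm-Tbr MASO replicate 1, control MASO replicate 2 or control MASO replicate 3, 0 members were called. There, 18, 19 and 17 members had an unadjusted p under 0.05 in edgeR's quasi-likelihood test. The share of all tested loci at that unadjusted p is not given for these fits, so the counts have no background. No other tool was run on 5 libraries. Over all tested loci the fits with 1 library left out called 0 (without control MASO replicate 2) to 479. The median over members lay between -0.0876 and 0.0754 with 1 library left out. The 7 called loci kept their direction in every alternative run on them. Pm-HspD1, near 0, changed sign with RLE scaling (-0.00139), no filter (-0.0463), the block (-0.0166) and DESeq2 (-0.00141), and without 1 library ranged from -0.208 to 0.108. With 1 library left out, values of either sign were also reached by the uncalled Pm-Hsp701E loci on scaffolds 11388 (-0.0646 to 0.488), 5591 (-0.0719 to 0.164) and 2197 (-0.109 to 0.209), by Pm-Hsp40E (-0.252 to 0.0754), Pm-Pdia4 (-0.0573 to 0.238) and Pm-Ttc4 (-0.279 to 1.20). The cause of these changes was not tested.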
